A study of Mus musculus with 22 samples.

Results

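The peaks described here lie in 6 windows around genes of bone morphogenetic protein (BMP) and endoglin signalling, Eng, Acvrl1, Smad6, Smad7, Id1 and Id3, in ATAC-seq peak lists of endothelial cells sorted from mouse retinas. A peak belonged to a locus if its midpoint lay in the window set for that gene in mm9, the build of the lists. This gave 137 of the 50178 peaks in the gTKO list and 156 of the 58311 peaks in the control list. The windows together span 940000 bp.

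Both genotypes were C57BL/6 pups at postnatal day 6, homozygous null for S1pr3 and homozygous for floxed S1pr1 and S1pr2, which with S1pr3 encode receptors for the circulating lipid sphingosine 1-phosphate. The gTKO pups also carried Rosa26-CreERT2, a tamoxifen-dependent recombinase that is not restricted to endothelium, and the control pups lacked it. All pups of both groups received 100 µg tamoxifen by intraperitoneal injection from postnatal day 1 to day 3. The recombinase itself and the deletion cannot be told apart as sources of a difference, since the controls have neither. ATAC-seq, which maps DNA open to the Tn5 transposase, was carried out on 3 gTKO and 3 control libraries, each from the pooled retinas of 4 to 6 pups. The labels give the age as postnatal day 6 and in another entry call the cells adult. Per its title, the study is about how signalling through these receptors sets AP-1 activity and lets retinal endothelium specialize.

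Each genotype is represented by 1 list of peak positions, with no score, summit or replicate value, so no test between genotypes was possible and the values below describe the lists. Depth is unknown. Over chromosomes 1 to 19, X and Y, the gTKO list held 49558 peaks covering 24.2 Mb and the control list 57267 peaks covering 31.4 Mb. A list with fewer peaks can come from fewer reads, and the part of depth in the differences below was not tested. A peak open in fewer cells and one open to a lesser degree in each cell cannot be told apart in bulk libraries. Intervals are exact 95% Clopper-Pearson intervals. They cover counting error only and treat neighbouring peaks as independent. The lists hold no gene names and no mm9 annotation was used here, so the endothelial label was not checked at marker genes, no peak was assigned to a promoter, exon or intron, and the place of each gene within its window was not checked.

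In endothelium the ligands BMP9 and BMP10 bind a complex of the type I receptor ALK1, the product of Acvrl1, with a type II receptor and the co-receptor endoglin, the product of Eng. The complex phosphorylates SMAD1 and SMAD5, which join SMAD4 and act on target genes. Id1 and Id3, which encode inhibitors of basic helix-loop-helix transcription factors, are classic targets, and Smad6 and Smad7 encode inhibitory SMADs that feed back on the pathway. Loss of one copy of ENG or ACVRL1 causes hereditary haemorrhagic telangiectasia in humans, and deletion of either gene in mouse endothelium gives arteriovenous malformations in the growing retina. In RefSeq's gene order on GRCm38.p6, Eng lies between Ak1 and Fpgs, Acvrl1 between Ankrd33 and Acvr1b, Smad6 between Smad3 and Lctl, Smad7 between Dym and Ctif, Id1 between Mcts2 and Cox4i2, and Id3 between Rpl11 and E2f2. Peaks in a window can therefore belong to such neighbours as well.

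The promoters of 3 of the 6 genes were in the RefSeq promoter table for GRCm38.p6, which runs from 250 bases before to 50 bases after each gene start. They are shown because SMAD complexes and AP-1, the factor named in the study's title, recognise short motifs that can be read directly. Capitals mark every GTCT or AGAC, the SMAD box on either strand. The windows are Eng at chr2:32646345-32646644 on the plus strand, Smad6 at chr9:64022010-64022309 on the minus strand and Id3 at chr4:136143572-136143871 on the plus strand. These positions are in another build than the peaks and were not set against them.
Eng: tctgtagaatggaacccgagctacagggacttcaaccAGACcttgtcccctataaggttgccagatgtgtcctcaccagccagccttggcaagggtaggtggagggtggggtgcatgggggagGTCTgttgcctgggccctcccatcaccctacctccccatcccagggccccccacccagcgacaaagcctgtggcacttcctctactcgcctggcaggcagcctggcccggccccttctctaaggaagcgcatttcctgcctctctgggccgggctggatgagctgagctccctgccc
Smad6: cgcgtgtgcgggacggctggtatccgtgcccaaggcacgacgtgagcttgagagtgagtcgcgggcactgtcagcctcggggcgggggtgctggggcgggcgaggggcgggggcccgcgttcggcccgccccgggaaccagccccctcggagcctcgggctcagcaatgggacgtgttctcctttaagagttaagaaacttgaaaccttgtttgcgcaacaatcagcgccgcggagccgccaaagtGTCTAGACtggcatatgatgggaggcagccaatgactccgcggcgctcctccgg
Id3: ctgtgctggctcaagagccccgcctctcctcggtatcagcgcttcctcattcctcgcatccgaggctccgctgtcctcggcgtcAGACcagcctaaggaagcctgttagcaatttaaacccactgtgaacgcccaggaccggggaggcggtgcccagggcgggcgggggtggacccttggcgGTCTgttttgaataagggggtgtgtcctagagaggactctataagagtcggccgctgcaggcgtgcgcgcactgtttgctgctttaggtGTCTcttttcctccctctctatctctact
The SMAD box occurred 2 times in the Eng promoter, 2 times in that of Smad6 and 3 times in that of Id3, and 88.0% of the 32851 promoters in the table held it. In Smad6 the 2 boxes abut as GTCTAGAC, a palindrome found in 70 promoters (0.213%). This longer motif was picked after the sequence was seen. The GC-rich SMAD1/5 motif GGCGCC was in 11.9% of promoters and the AP-1 motif TGANTCA in 7.81%. Neither was found in the Eng, Smad6 or Id3 window. A match is a description of letters and not a binding site.

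All 6 loci were accessible in both genotypes, and in each of them the gTKO list covered less sequence than the control list. Over the 6 windows, gTKO peaks covered 69433 bp and control peaks 98908 bp, a ratio of 0.702, beside 0.771 over all placed chromosomes. The number of peaks did not follow the same pattern. The gTKO list held fewer peaks than the control list at Eng, Acvrl1, Smad6 and Id1, and more at Smad7 (25 against 23) and Id3 (26 against 23). Those 2 orders depended on narrow peaks: of peaks at least 300 bp wide, Smad7 held 14 in gTKO and 18 in control, and Id3 17 in gTKO and 18 in control. In windows extended by 50% of their length at each end, Smad7 held 39 peaks in each list. The control list was also reduced to its widest peaks, as many as the gTKO list holds. Acvrl1 then held 21 gTKO and 20 control peaks, and Smad6 21 in each list. In the central 50% of its window, Id1 held 11 in each.

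**Figure D1:**
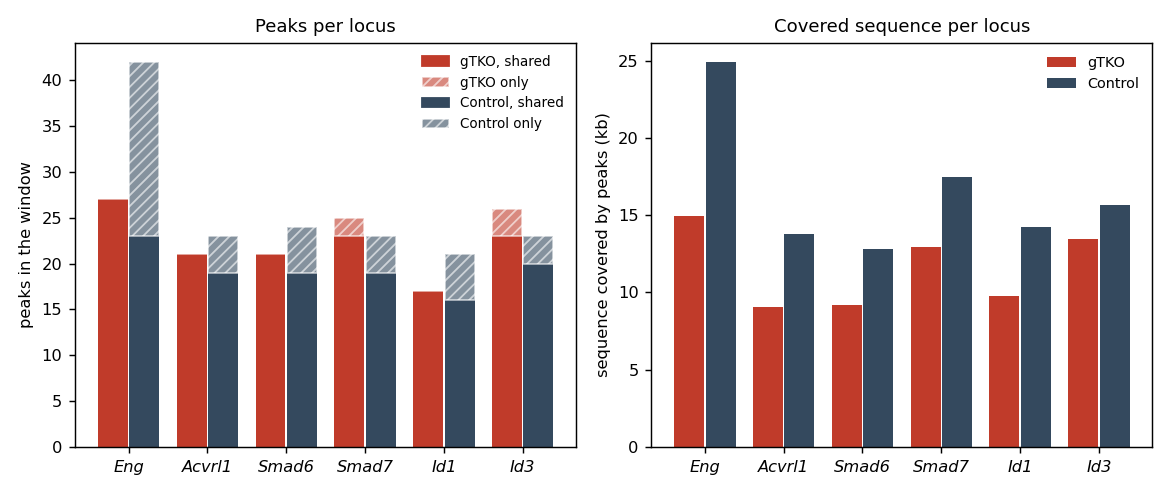
Left, peaks per locus window in the gTKO list (red) and the control list (dark blue), with peaks that overlapped none of the other list hatched. Right, sequence covered by peaks (kb). Eng had 19 hatched control peaks, the other loci 3 to 5, and at each locus the gTKO bar for covered sequence is the shorter one.

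The windows were rich in peaks in both lists. Peaks covered 7.39% of the 6 windows in the gTKO list and 10.5% in the control list. Over all placed chromosomes, from the first to the last peak of each, the shares were 0.940% and 1.22%. The windows were set on genes and the genome share includes gene-poor sequence. The densest window was Eng, with 10.7% covered in the gTKO list and 17.8% in the control list. Smad6, the longest window, was the sparsest, at 4.18% in gTKO and 5.82% in control.

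**Figure D2:**
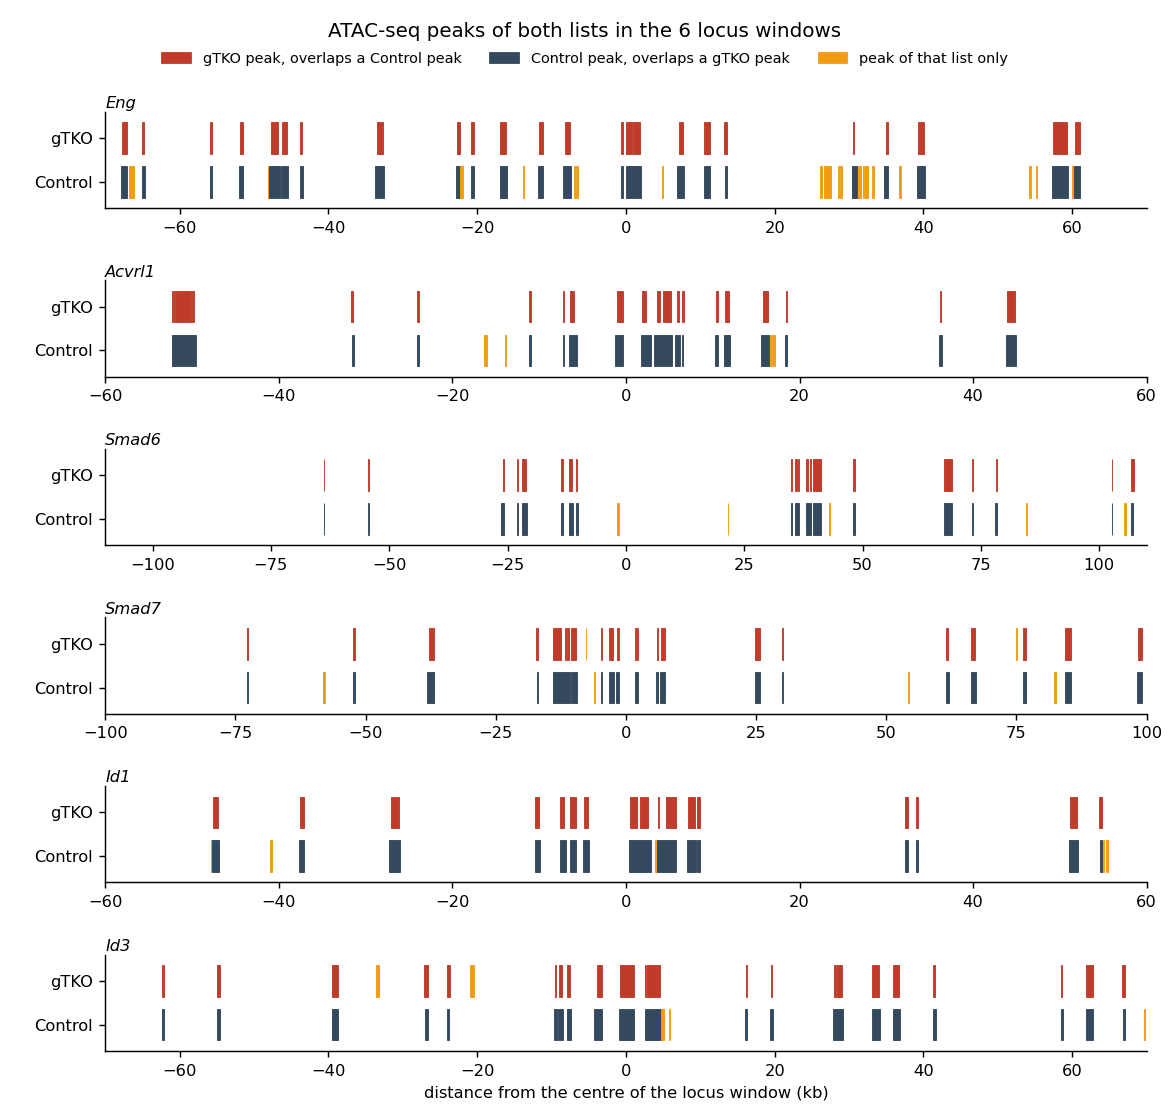
Peaks of the gTKO list (upper row of each panel) and the control list (lower row) along the 6 windows, by distance from the window's centre (kb); orange marks peaks of that list only. Each bar has a thin outline of fixed width, so the narrowest peaks appear slightly too wide. The run of orange control peaks right of the centre at Eng has no counterpart in another panel.

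Of the receptor genes, Eng had the largest difference of the 6 loci in covered sequence. The gTKO list held 27 peaks covering 14959 bp, and the control list 42 peaks covering 24931 bp, a ratio of 0.600. Of the control peaks, 19 overlapped no gTKO peak, which is 45.2% (interval 29.8 to 61.3%), against 27% of all placed control peaks. Narrow peaks more often lack a partner, and the shares of the same width classes over all placed peaks would give 9.37 peaks, or 22.3%, below the interval. With peaks under 300 bp left out of both lists, 11 of 29 Eng control peaks were control-only (37.9%, interval 20.7 to 57.7%, against 24.9% of all placed control peaks). With the control list reduced to its widest peaks, as many as the gTKO list holds, they were 12 of 35 (34.3%, interval 19.1 to 52.2%, against 20.2%), so under both settings the genome share lay within the interval. Of the 27 gTKO peaks, 0 were gTKO-only, which allows up to 11.1%, and the share over all placed gTKO peaks was 9.75%.

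At Eng, more of the control sequence outside gTKO peaks lay in control-only peaks than in the edges of shared ones. Of the 10083 control bases that no gTKO peak covered, 5628 (55.8%) lay in control-only peaks. At the other loci that share was 18.0 to 29.9%, and over all placed chromosomes 40.5%. The control-only peaks at Eng were mostly narrow, with a median width of 225 bp. The widest was chr2:32536695-32537610, 916 bp wide and 2866 bp from the nearest gTKO peak, and the next was chr2:32443136-32443830, at 695 bp and a distance of 203 bp. Of all placed control peaks from 500 bp to under 1000 bp, 3.65% had no gTKO partner.

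Of the 19 control-only peaks of Eng, 9 lay in 1 stretch and 10 elsewhere in the window. When peaks of either list no more than 3 kb apart were chained, chr2:32536075-32550261 held 3 gTKO peaks covering 1443 bp and 12 control peaks covering 5362 bp. Of these 12, 9 were control-only, and the same width classes would give 3.45. They include the 916 bp peak and 3 others of at least 300 bp, chr2:32541143-32541553 (411 bp), chr2:32542077-32542531 (455 bp) and chr2:32543113-32543415 (303 bp). The 3 gTKO peaks of the stretch, 236, 311 and 896 bp wide, each lay within a control peak, of 565, 571 and 1181 bp. The stretch was singled out after its values were seen. Without it, 10 of 30 Eng control peaks were control-only (33.3%, interval 17.3 to 52.8%), an interval that holds both the 27% of all placed control peaks and the 19.7% (5.92 peaks) of the width classes, and the ratio of covered sequence was 0.691.

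The rest of the Eng window kept its main peaks in both genotypes. The widest gTKO peak measured 1919 bp and lay inside the widest control peak, chr2:32567301-32569493, of 2193 bp. The next widest control peak, chr2:32509989-32511970 (1982 bp), matched a pair of gTKO peaks of 840 and 961 bp, with a gap of 135 bp between them. Both of these control peaks were covered for the most part, at 87.5% and 90.9%. A control peak of 1358 bp at chr2:32462069-32463426 matched 3 gTKO peaks of 348, 233 and 240 bp, and only 60.5% of it was covered. The control peak chr2:32487165-32487680 (516 bp) matched gTKO peaks of 297 and 151 bp. Since the second of these reached past its end, the next control peak, chr2:32487738-32488101 (364 bp), lay 8 bp from gTKO sequence and still counted as control-only.

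Acvrl1, the gene of the receptor ALK1, had a control-only share that counting error does not separate from that of all placed peaks, and most of its difference in covered sequence lay in the width of shared ones. The window held 21 gTKO peaks covering 9064 bp and 23 control peaks covering 13801 bp, a ratio of 0.657. The control-only peaks numbered 4, 17.4% (interval 4.95 to 38.8%), against 27% of all placed control peaks and 27.8% (6.40 peaks) from the width classes. The widest of these, chr15:100943668-100943969, measured 302 bp. All 21 gTKO peaks overlapped a control peak, which allows a gTKO-only share of up to 14.3%, beside 9.75% of all placed gTKO peaks. Of the control bases without a gTKO peak, 82.0% lay within shared peaks. The stretch chr15:100958740-100966656 had no one-list peak, yet gTKO peaks covered 2767 bp of it and control peaks 4842 bp.

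A pair of wide control peaks at Acvrl1 had gTKO partners well under their own width. The peak chr15:100961733-100962911 measured 502 bp in gTKO and 1179 bp in control, and its neighbour chr15:100963196-100964015 measured 341 bp in gTKO and 820 bp in control. The control peak chr15:100958740-100959669 (930 bp) matched gTKO peaks of 373 and 213 bp. The widest peaks of the window were closer in width. At chr15:100907942-100910410 the control peak measured 2469 bp, and gTKO peaks of 1840 and 206 bp covered 82.9% of it. The next widest, chr15:100964028-100965278, measured 928 bp in gTKO and 1251 bp in control. Immediately beside the widest lay the pair with the highest ratio at the 6 loci, 272 bp in gTKO against 180 bp in control (ratio 1.51).

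Smad6, which encodes an inhibitory SMAD selective for BMP signals, held 21 gTKO peaks (9192 bp) and 24 control peaks (12796 bp), a ratio of 0.718. Its 5 control-only peaks were 20.8% of the total (interval 7.13 to 42.2%), against 27% of all placed control peaks and 28.4% (6.81 peaks) from the width classes. They were 154 to 317 bp wide, and 3 of them stood alone, with no gTKO peak in their stretch. The most distant, of 154 bp, lay 13230 bp from any gTKO peak, and the widest, chr9:63828171-63828487, lay 8438 bp away. Of the 21 gTKO peaks, 0 were gTKO-only, which allows up to 14.3%. All placed gTKO peaks had a share of 9.75%, and the width classes would give 1.95 peaks. The widest control peak, chr9:63869436-63871297 (1862 bp), matched a gTKO peak of 1609 bp. The next, chr9:63897219-63898889 (1671 bp), matched gTKO peaks of 1004 and 561 bp that were 22 bp apart and covered 93.5% of it. These gTKO peaks spanned most of their control peaks, whereas the control peak chr9:63867946-63869113 (1168 bp) matched gTKO peaks of 508 and 228 bp with 326 bp between them.

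Smad7, the gene of the other inhibitory SMAD, which acts on BMP and TGF-beta receptors alike, held the widest peak at the 6 loci. The control peak chr18:75525899-75529290 measured 3392 bp and ranked 81 by width among all placed control peaks. It matched 3 gTKO peaks, of 1626, 258 and 530 bp, which covered 71.2% of it, with gaps of 626 and 115 bp. The next control peak, chr18:75529362-75530528 (1167 bp), matched gTKO peaks of 314 and 637 bp, and chr18:75541748-75542409 (662 bp) matched gTKO peaks of 154 and 257 bp. The second widest control peak of the window, chr18:75501750-75503165 (1416 bp), matched a single gTKO peak of 1072 bp. In all, 25 gTKO peaks covered 12964 bp and 23 control peaks 17488 bp, a ratio of 0.741.

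One-list peaks at Smad7 occurred on both sides. The gTKO list had 2 of its own (8.0%, interval 0.984 to 26.0%), of 150 and 212 bp, and the control list 4 (17.4%, interval 4.95 to 38.8%), of 178 to 386 bp. Both counts were close to the 1.91 gTKO-only and 3.44 control-only peaks that the width classes would give, and the shares of all placed peaks, 9.75% and 27%, lay within the intervals. Of the control-only peaks, 3 exceeded 300 bp, at chr18:75481814-75482136 (323 bp), chr18:75594117-75594424 (308 bp) and chr18:75622225-75622610 (386 bp). The wider gTKO-only peak, chr18:75614898-75615109, lay 1155 bp from the nearest control peak. Pairs wider in gTKO numbered 3 of 16 (18.75%, interval 4.05 to 45.6%), close to the 19.9% of all placed pairs. Among them was a peak of 942 bp in gTKO and 877 bp in control.

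At Id1, which encodes an inhibitor of DNA binding and a direct BMP target, the window held 17 gTKO peaks covering 9789 bp and 21 control peaks covering 14248 bp, a ratio of 0.687. The widest control peak, chr2:152560374-152562939 (2566 bp), ranked 303 among all placed control peaks. It matched gTKO peaks of 813 and 1016 bp, which left a gap of 247 bp and covered 71.3% of it. Nearby, chr2:152564311-152565797 measured 1146 bp in gTKO and 1487 bp in control. Between these wide peaks lay the pair with the lowest ratio at the 6 loci, 190 bp in gTKO against 699 bp in control (ratio 0.272). The 5 control-only peaks (23.8%, interval 8.22 to 47.2%) were close in number to the 4.43 (21.1%) of the width classes, beside 27% of all placed control peaks. They were all narrow, from 150 bp to the 210 bp of chr2:152563343-152563552, which lay 84 bp from a gTKO peak. Of the 17 gTKO peaks, 0 were gTKO-only, which allows a share of up to 17.6%, beside 9.75% of all placed gTKO peaks.

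Id3, a target of the same kind, was the locus where the lists differed least in covered sequence. There were 26 gTKO peaks covering 13465 bp and 23 control peaks covering 15644 bp, a ratio of 0.861, the only one of the 6 above the 0.771 of all placed chromosomes. The widest peak, chr4:135699068-135701147, measured 1910 bp in gTKO and 2080 bp in control. Beside it, the control peak chr4:135702586-135704653 (2068 bp) matched gTKO peaks of 194, 452 and 1291 bp, the first of which began before it, and 89.7% of it was covered. One-list peaks numbered 3 of 26 in gTKO (11.5%, interval 2.45 to 30.2%) and 3 of 23 in control (13.0%, interval 2.78 to 33.6%). The shares of all placed peaks, 9.75% and 27%, lay within these intervals, and the width classes would give 1.90 gTKO-only and 4.18 control-only peaks.

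The gTKO-only peaks at Id3 lay together. The peaks chr4:135666460-135666738 (279 bp), chr4:135679019-135679265 (247 bp) and chr4:135679369-135679581 (213 bp) were neighbours, with a pair of shared peaks, both wider in gTKO, between the first and the other 2. Of these shared peaks, 1 measured 511 bp in gTKO and 457 bp in control, the other 334 bp in gTKO and 262 bp in control. The stretch chr4:135672892-135679581 thus held 4 gTKO peaks covering 1305 bp and 2 control peaks covering 719 bp. Of the stretches in the 6 windows with peaks of both lists, it had the highest ratio of gTKO to control sequence, 1.82. The sole control-only peak past 300 bp at Id3, chr4:135704684-135705075 (392 bp), lay 96 bp from the nearest gTKO peak.

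Across the 6 loci, one-list peaks made up a smaller share of the gTKO list than over all placed chromosomes, and a similar share of the control list. In gTKO they numbered 5 of 137, 3.65% (interval 1.2 to 8.31%), against 9.75% of all placed gTKO peaks. The width classes of these peaks would give 10.3, or 7.51%, which is within the interval. In control they numbered 40 of 156, 25.6% (interval 19 to 33.2%), against 27% of all placed control peaks and 22.2% (34.6 peaks) from the width classes. The control value depended on Eng. Without that locus, 21 of 114 control peaks were control-only, 18.4% (interval 11.8 to 26.8%), and the width classes would give 25.3, or 22.2%. The 27% of all placed control peaks lay just above that interval. Without the stretch of Eng described above, the count was 31 of 144, 21.5% (interval 15.1 to 29.1%). The width classes would give 31.2, or 21.7%, and the 27% of all placed control peaks also lay within that interval.

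Width separated the peaks with and without a partner at these loci as it did elsewhere. Control-only peaks had a median width of 210 bp, against 582 bp for shared control peaks. Of the control peaks under 200 bp, 18 of 23 had no partner (78.3%, beside 66.4% over all placed control peaks of that class). From 200 bp to under 300 bp these were 10 of 28 (35.7%, beside 38.5%), from there to under 500 bp 10 of 37 (27.0%, beside 19.1%) and to under 1000 bp 2 of 38 (5.26%, beside 3.65%). Of the 30 control peaks of at least 1000 bp, 0 were control-only (upper limit 10.0%, beside 0.469%). The gTKO list had its one-list peaks in the narrowest classes, 1 of 14 under 200 bp (7.14%, beside 26.2%) and 4 of 39 from there to under 300 bp (10.3%, beside 13.4%). In the next classes the counts were 0 of 31 (upper limit 9.68%, beside 4.28%), 0 of 42 (upper limit 7.14%, beside 0.136%) and 0 of 11 (upper limit 27.3%, beside 0%). All 5 gTKO-only peaks were under 300 bp wide, whereas 12 of the 40 control-only peaks were not. The gTKO-only peaks lay 1155 to 5184 bp from the nearest control peak. Control-only peaks lay 8 to 13230 bp from the nearest gTKO peak, with a median of 1443 bp, and 14 of the 40 were within 1 kb.

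**Figure D3:**
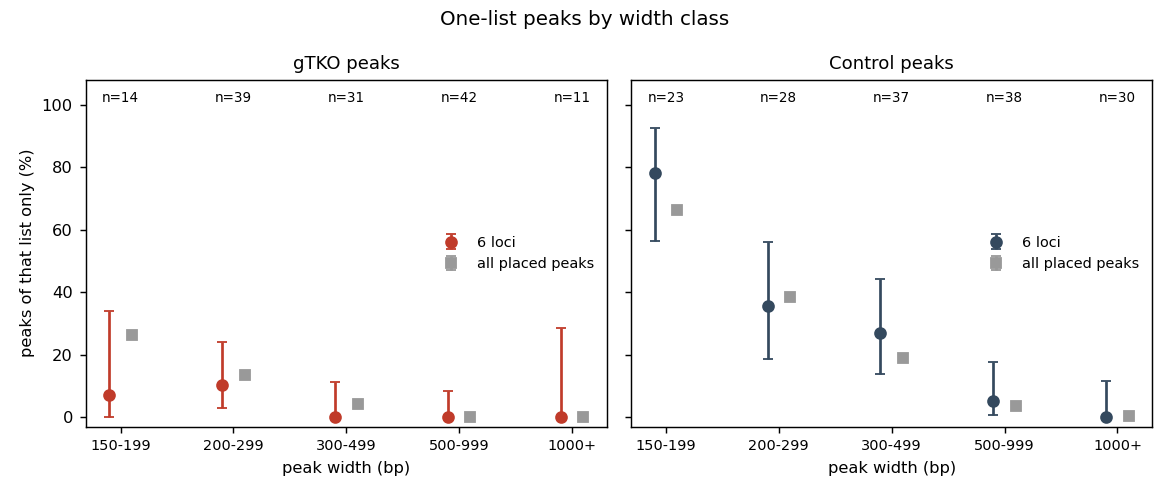
Share of peaks (%) found in that list only, by peak width, for gTKO (left) and control (right) peaks. Coloured points give the 6 loci together with exact 95% intervals and the number of peaks above, and grey squares all placed peaks with the same kind of interval. At the loci the control share declines from 78.3% in the narrowest class to 0 in the widest, and no gTKO-only peak is 300 bp wide or more.

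Shared peaks were mostly narrower in gTKO. Of 103 peaks that matched exactly 1 peak of the other list, 12 were wider in gTKO (11.7%, against 19.9% of all placed pairs) and 91 in control. The share wider in control was 88.3% (interval 80.5 to 93.8%), against 79.5% of all placed pairs and, within the interval, 82.4% given the width classes of the control peaks. The median width of these pairs was 368 bp in gTKO and 512 bp in control, and the median ratio of gTKO to control width was 0.790, beside 0.866 over all placed pairs. By locus the median ratio ranged from 0.742 at Acvrl1 to 0.864 at Smad6. The difference from all placed pairs was widest for the broadest peaks. All 20 pairs with a control peak of at least 1000 bp were narrower in gTKO, with a median ratio of 0.765, beside 0.873 over all placed pairs of that class. For the 5 pairs with a control peak under 200 bp, the median was 1.06, beside 1.04 over all placed pairs.

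**Figure D4:**
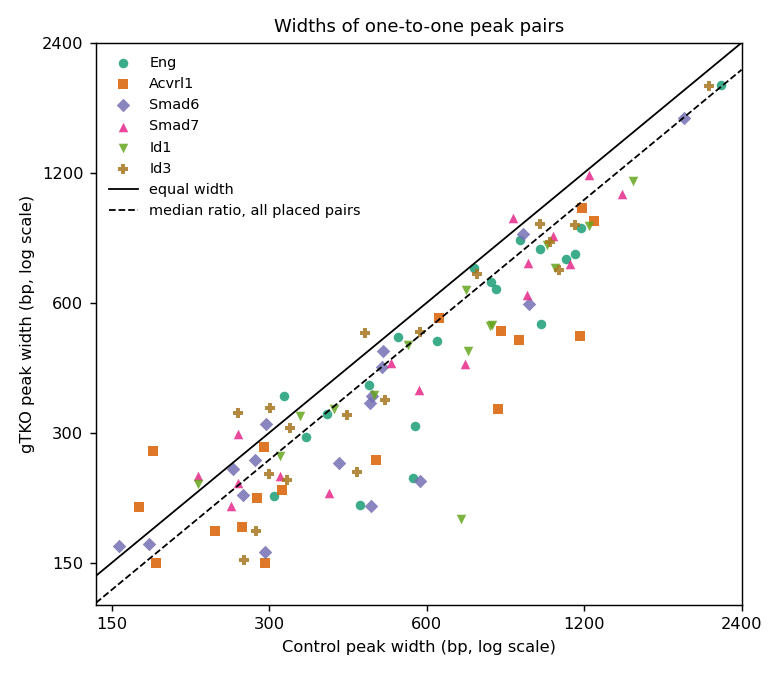
Width of the gTKO peak against width of the control peak (bp, log scales) for 103 one-to-one pairs at the 6 loci. The solid line marks equal width and the dashed line the median ratio of all placed pairs, 0.866; 91 points lie below the solid line, and the lowest, at Id1, has a ratio of 0.272.

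Shared peaks were narrower in gTKO at both edges, with midpoints close together. In 71 of the 103 pairs (68.9%, interval 59.1 to 77.7%) the gTKO peak lay entirely within the control peak, against 62.7% of all placed pairs, and in 6 pairs the reverse held. At the median, the gTKO edge was 59.0 bp further in on the side of the lower coordinate and 39 bp on the other, beside 30.0 bp on each side over all placed pairs. Midpoints were displaced by a median of 29.5 bp and by at most 212.5 bp. Counting differences in width of at least 1.2 times, 2 of the 103 pairs were wider in gTKO and 62 of the 103 in control. Of all 37878 placed pairs, 2880 (7.6%) were wider in gTKO by this measure and 16269 (43%) in control.

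A control peak matched 2 or more gTKO peaks in 13 cases, at least 1 at each locus, and no gTKO peak at the loci matched more than 1 control peak. The 13 are 8.33% of the control peaks (interval 4.51 to 13.8%), against 5.28% over all placed peaks, and the width classes would give 9.84. In the other direction, 0 of 137 gTKO peaks, which allows up to 2.19%, compare with 1.07% of all placed gTKO peaks. Of the 13, 10 were at least 1000 bp wide, of 30 such control peaks (33.3%, beside 21.5% over all placed peaks), and 3 were among the 38 of 500 bp to under 1000 bp (7.89%, beside 7.38%). The widest control peak was of this kind at Acvrl1, Smad7 and Id1, whereas at Eng, Smad6 and Id3 it matched 1 gTKO peak. The smallest gap between pieces was 14 bp, at chr4:135727843-135729151 (1309 bp) in the Id3 window, and the largest the 626 bp at Smad7.

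**Figure D5:**
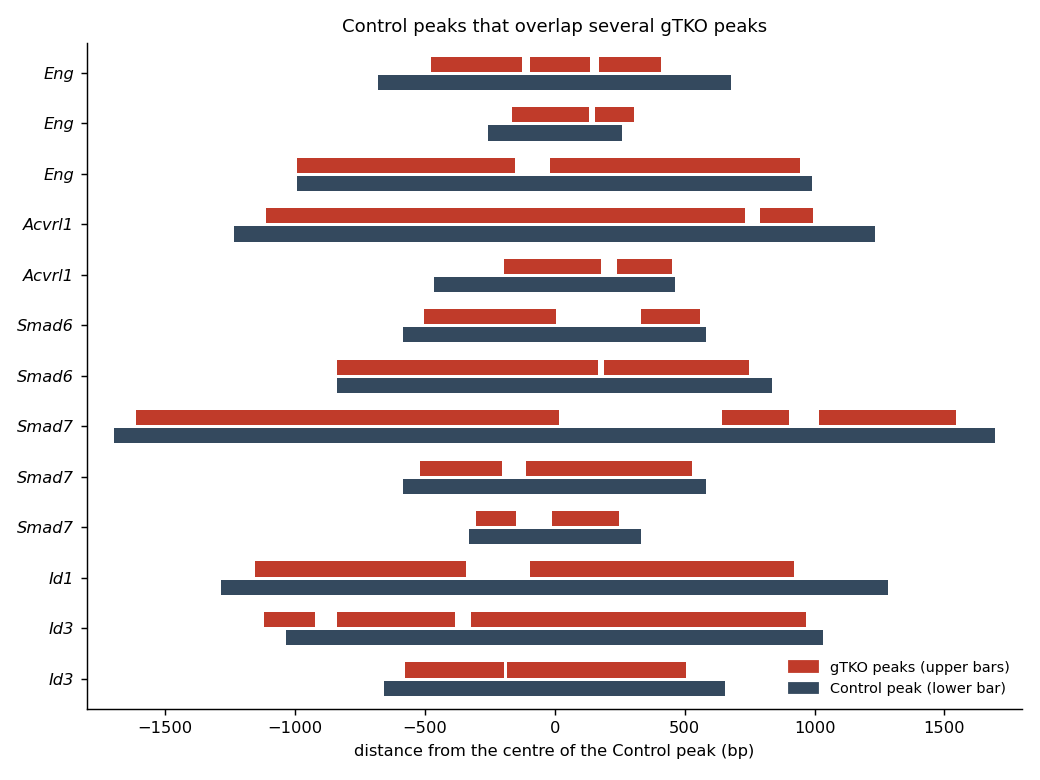
The gTKO peaks (red, upper bars) of each of the 13 control peaks (dark blue, lower bars) that overlapped 2 or more of them, by distance from the centre of the control peak (bp). Rows run through Eng, Acvrl1, Smad6, Smad7, Id1 and Id3, by position within each; the gaps range from 14 to 626 bp, and in 2 rows, 1 each at Eng and Id3, a gTKO peak clearly reaches past the control peak.

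Most of the control sequence outside gTKO peaks lay within shared peaks. Over the 6 loci 31694 control bases had no gTKO peak, of which 21276 (67.1%) were in shared and 10418 (32.9%) in control-only peaks. Over all placed chromosomes the shares were 59.5% and 40.5%. The gTKO list added little of its own: 2219 of its bases had no control peak, 639 of them at Smad7 and 1013 at Id3. Thus 96.8% of the gTKO sequence at the loci was also covered in control, and 68.0% of the control sequence in gTKO. Given their width classes, all placed control peaks would give 73.6% for this second share. Eng lay furthest below such a value, at 59.6% against 72.8%. Acvrl1, at 64.1% against 72.2%, Id1, at 68.1% against 75.2%, and Smad7, at 70.5% against 76.4%, also lay below. Smad6, at 70.7% against 69.3%, and Id3, at 79.6% against 75.1%, lay above.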

How the data were processed

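The values analysed are peak positions from ATAC-seq of 3 gTKO and 3 control libraries, deposited by the authors as 1 list per genotype, with start and end as the only values and no score, fold enrichment or q-value. Replicates cannot be told apart, because the 3 libraries of each genotype share a list. Per the submitters' processing notes, the build was mm9 and the tools named include Bowtie2, Picard, MACS2 and bedtools. The sources used here give neither the pooling of reads nor the calling threshold, and both affect the number and width of peaks. RNA-seq libraries of the series are not analysed here.

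Peaks were assigned to a locus by midpoint and called shared on an overlap of at least 1 bp with any peak of the other list. Start positions are given 1-based. The value from width classes sums, over the peaks of a locus, the one-list share of all placed peaks in 5 classes, which begin at 150, 200, 300, 500 and 1000 bp. Placed peaks are those on chromosomes 1 to 19, X and Y. The limit beside a count of 0 is 3 counts of the total. It is lower than the upper end of the exact interval, which is 12.8% for 0 of 27 gTKO peaks at Eng. Named peaks were the 2 widest control peaks per locus with their gTKO partners, the widest gTKO peak, one-list peaks of at least 300 bp, the widest one-list peak of each list, and peaks matching several of the other list. Others named, the Eng and Id3 stretches included, were chosen after their values were seen. The planned marker and pathway gene lists need an mm9 annotation and were not run. The loci, windows and lists were chosen with earlier results of these data known. The overlap procedure was checked on simulated lists, made from the control peaks by dropping, trimming or splitting them. These held no gTKO-only peak, no gTKO peak wider than its control peak and none across several control peaks, so such counts were not checked. Python 3.11.15, numpy 2.4.6, pandas 2.3.3, scipy 1.17.1 and matplotlib 3.10.9 were used.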

Additional observations from a re-analysis of the deposited data

How the results depend on the processing

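Over the 6 loci, the ratio of covered sequence (0.702) stayed between 0.657 and 0.736 and the median width ratio (0.790) between 0.756 and 0.812 under every alternative run on them. Control-only peaks outnumbered gTKO-only peaks under each, beside 5 gTKO-only and 40 control-only peaks as reported. The central 50% of each window held 89 gTKO and 98 control peaks, 24 of the latter control-only. Windows extended by 50% of their length at each end held 206 gTKO and 258 control peaks, 80 of the latter control-only. The share over all placed control peaks was 27%. With the control list reduced to its widest peaks, as many as the gTKO list holds, 24 of 138 were control-only, beside 20.2% of all placed peaks of the reduced list. Requiring 50% of both peaks to be covered gave 35 gTKO-only and 54 control-only peaks. Shares of all placed peaks under this rule were not computed. With peaks under 300 bp left out of both lists, 84 gTKO peaks remained, of which 2 were gTKO-only. Of the pairs that remained, 5.88% were wider in gTKO, against 11.7% as reported. Shares of all placed gTKO peaks and pairs under this setting were not computed, so these values have no background beside them. Of the 105 control peaks that remained, 30 were control-only, beside 24.9% of all placed control peaks under this setting. Of pairs whose widths differed at least 1.2 times, 3.12% were wider in gTKO, 2 pairs against 62 wider in control. Among all placed pairs that differed by as much, 2880 were wider in gTKO against 16269 wider in control. Leaving out a locus, an alternative chosen after seeing the data, gave 21 control-only peaks of 114 without Eng, beside 27% of all placed control peaks. It gave 3 gTKO-only peaks of 112 without Smad7 and 2 of 111 without Id3, beside 9.75% of all placed gTKO peaks. In all, 82 totals over the 6 loci stayed within 1.5 times of the reported value or, for shares, within its interval, and 15 did not. Of the values of single loci, 236 stayed so and 59 did not. Assigning peaks to a window by an overlap of 1 bp left every total unchanged, so those totals count among the 82. At no locus did the ratio of covered sequence or the median width ratio cross 1. The order of peak counts did turn with peaks under 300 bp left out, to 14 gTKO and 18 control peaks at Smad7 and to 17 gTKO and 18 control peaks at Id3. It also turned with the reduced control list at Acvrl1, to 21 gTKO and 20 control peaks. Counts were equal at Smad6 with that list (21 each), at Smad7 in extended windows (39 each) and at Id1 in central windows (11 each). The Eng count of control-only peaks (19 of 42) was 11 of 29 with peaks under 300 bp left out and 12 of 35 with the reduced control list. It was 36 of 74 in extended windows (48.6%, beside 27% of all placed control peaks) and 10 of 30 without the stretch described above. For these moves the cause was not tested beyond what each alternative leaves out. No paired analysis was possible because the deposited peaks are not split by library, and for the same reason no replicate was left out. Distances from gene starts were not run, since no mm9 annotation was used. Depth is unknown, so it sets no limit that can be given here.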
